A study of Mus musculus with 32 samples.

Results

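The matrix-binding integrins described here are 10 genes chosen by name from the gene tables of quadriceps muscle of mice with and without Col6a2, a gene for one of the chains of collagen VI. They are the α chain genes Itga1, Itga5, Itga6, Itga7, Itga9, Itga11 and Itgav and the β chain genes Itgb1, Itgb5 and Itgb8, out of 53801 gene IDs listed; all 10 names were found, each under 1 ID. RNA was sequenced from 32 mice in 8 groups of 4: wild type (WT) or Col6a2-/-, aged 5 or 25 weeks, females or males. The Col6a2-/- mice were homozygous for the null allele Col6a2tm1(KOMP)Vlcg, made in C57BL/6N and backcrossed for 5 generations onto C57BL/6J. Heterozygous parents gave both genotypes, and the labels name no other allele and no treatment for any group. RNA came from cryosections of the snap-frozen muscle, so it mixes myofibres with every other cell of the tissue, and fewer cells of a type cannot be told apart from less RNA per cell.

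Integrins are pairs of one α and one β chain that span the cell membrane, bind proteins of the extracellular matrix outside, and bind talin and kindlin inside, which link them to actin. The chain pairing sets the ligand: α7β1 and α6β1 bind laminin, α1β1 and α11β1 bind collagens, α5β1 binds fibronectin, α9β1 binds tenascin-C and VCAM1, and αvβ5 binds vitronectin. In skeletal muscle α7β1 is the main laminin receptor of the mature myofibre, beside the dystroglycan complex. The αv integrins, αvβ8 among them, also bind the latent form of TGFβ, the growth factor named in the title of the study.

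Col6a2 itself checks the genotype labels: it stood at 33.2 ± 11.3 TPM (abundance scaled to transcript length and library total; SD, n = 8) in the 5-week WT libraries and at no more than 0.171 TPM in any 5-week Col6a2-/- library. At 25 weeks it stood at 10.7 ± 2.79 TPM in WT (n = 8) and at no more than 0.0344 TPM in Col6a2-/-. The myofibre genes Acta1 (mean 7059 TPM) and Ckm (3040 TPM) were abundant in all 32 libraries. Relative depth, the ratio of coverage to FPKM in genes with 1 annotated transcript, ran from 6.78 to 13.7 with a median of 8.95, and 10399 to 12877 genes reached 1 TPM per library. The library of 5-week Col6a2-/- female 2 stood apart: it was the highest of its group for 10 of the 10 integrin genes and had the largest score on the first principal component of all tested genes, 58.6 against -9.68 to 29.4 in the other 3 of its group. Within the same group, female 4 was the lowest for 8 of the 10 genes, and among the 5-week Col6a2-/- males number 4 was the lowest for 9.

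The 10 transcripts covered a wide range of levels in TPM, a scale that is per transcript length. The mean over the 32 libraries was 60.5 ± 18.7 TPM (SD) for Itgb1, the common β partner, which was above the next gene in 32 of 32 libraries. Itga7 followed at 15.5 ± 4.23, Itgb5 at 13.9 ± 3.25 and Itga6 at 9.99 ± 3.39 TPM. These neighbours were not separated, since Itga7 exceeded Itgb5 in 17 libraries and Itgb5 exceeded Itga6 in 21. Itga1 at 6.52 ± 1.86 and Itgav at 6.18 ± 2.75 TPM lay below Itga6, with Itga1 the higher of the pair in 20 libraries. Itga5 at 2.73 ± 1.25, Itga9 at 2.25 ± 0.988 and Itga11 at 2.25 ± 1.02 TPM overlapped one another, and Itgb8 was the lowest at 0.468 ± 0.238 TPM. Apart from Itgb1 and Itga7, which ranked 1 and 2 on both scales, the place in this order depends on how the level is taken. When coverage, the mean read depth over a gene, was put on the same scale, it came to 0.0961 of the FPKM value for Itga6, 0.0860 for Itga9 and 0.125 for Itgb5, against 0.335 for Itga7 and 0.697 for Itgb1, and on that scale Itgb5 ranked 7, Itga6 ranked 8 and Itga9 ranked 10. Itga1 then ranked 3, Itgav 4, Itga11 5, Itga5 6 and Itgb8 9. The reason for the gap was not tested.

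**Figure D1:**
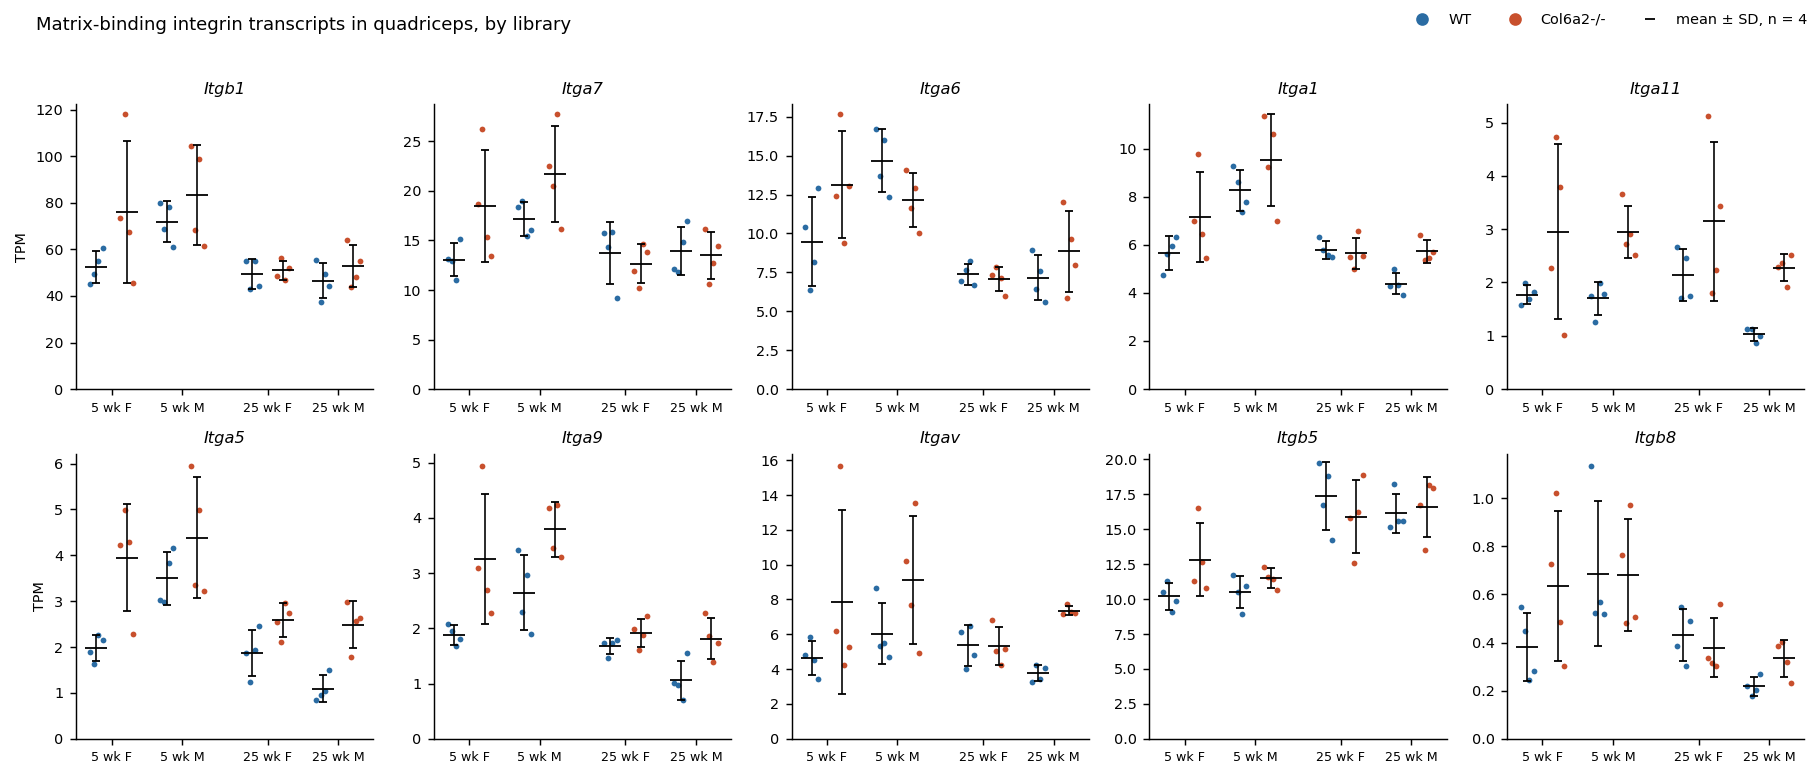
TPM of each integrin gene (vertical axes, linear from 0) in the 8 groups. Points are libraries, WT in blue and Col6a2-/- in orange, and bars give the mean ± SD of 4. Itgb5 is the gene whose WT libraries all lie higher at 25 weeks (lowest 14.3 TPM) than at 5 weeks (highest 11.7 TPM), while Itga5 and Itga11 show the Col6a2-/- points above WT at both ages with some overlap.

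Loss of Col6a2 came with more RNA of 5 integrin α genes at 5 weeks and of 2 at 25 weeks, by about 0.4 to 0.5 on the log2 scale each. Changes are Col6a2-/- minus WT on the log2(TPM + 1) scale, which understates the change of low genes, and a gene is called at an adjusted p (Benjamini-Hochberg over 12817 genes, limma) under 0.05. At 5 weeks Itga5, Itga7, Itga9, Itga11 and Itgav were called higher, 5 of the 9 members tested, and 0 were called lower; across all genes tested 23.2% were called higher and 2.14% lower. At 25 weeks Itga5 and Itga11 were called higher, 2 of 9, and 0 lower, with 4.47% of all genes higher and 0.234% lower. The median change of the 9 members was 0.37 at 5 weeks beside 0.15 for all genes, and 0.14 at 25 weeks beside 0.08 for all genes. The members and the gene lists given below were chosen with earlier results of these data known. Their counts and medians beside all genes are therefore descriptions only. Itgb8 was not tested, because it reached 1 TPM in 2 libraries.

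The calls depended on how the libraries were scaled. Dividing each library by a median-of-ratios size factor moved the median of all genes at 5 weeks from 0.15 to 0.00, and the calls from 2979 higher and 274 lower to 1623 higher and 1479 lower. At 25 weeks the same step moved them from 573 higher and 30 lower to 750 and 532. Rescaling on all but the 100 most abundant genes gave 1931 higher and 1024 lower at 5 weeks and 816 and 268 at 25 weeks, and quantile normalization gave 1413 and 1672, and 483 and 365. Under each of these 3 scalings 2 members remained called at 5 weeks, Itga5 and Itga9. Relative to the median of all genes at 5 weeks, the members stood at 0.34 (Itgav), 0.33 (Itga11), 0.32 (Itga5), 0.32 (Itga9), 0.22 (Itga7), 0.17 (Itgb1), 0.08 (Itga1), 0.06 (Itgb5) and -0.05 (Itga6).

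**Figure D2:**
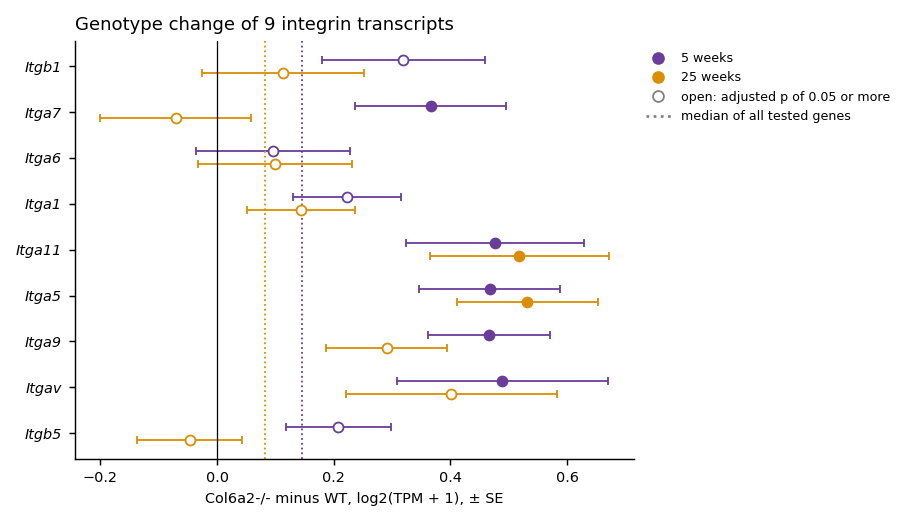
Genotype change (horizontal axis, Col6a2-/- minus WT on the log2(TPM + 1) scale, ± SE) of the 9 tested integrin genes at 5 and 25 weeks, with 8 libraries per genotype at each age. Filled points have an adjusted p under 0.05 and dotted lines mark the median of all genes; Itga5 and Itga11 are filled at both ages, and Itga7 lies at 0.37 at 5 weeks and at -0.07 at 25 weeks, a value that turns to 0.02 on the coverage scale.

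Itgb1 (chr8:128685654-128733200, plus strand, GRCm38, as are all gene positions here) encodes β1, which pairs with all 7 α chains listed. Its change was 0.32 ± 0.14 (SE) at 5 weeks (adjusted p = 0.0899) and 0.11 ± 0.14 at 25 weeks (adjusted p = 0.706), neither past the threshold; the sign at 25 weeks turned to -0.01 with median-of-ratios size factors. The 5-week female libraries read 45.0, 49.3, 55.0 and 60.5 TPM in WT and 73.6, 118, 67.7 and 45.5 in Col6a2-/-. The 5-week males read 79.9, 68.6, 78.0 and 60.9 TPM in WT and 104, 68.3, 98.7 and 61.5 in Col6a2-/-. Of the 8 young Col6a2-/- libraries, 5 lay above the WT mean of their sex, and the groups overlapped in both sexes. Without female 4 of the Col6a2-/- group the 5-week adjusted p was 0.010, without male 4 it was 0.0374, and on the coverage scale it was 0.0457.

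Of the laminin-binding chains, Itga7 was called at 5 weeks and Itga6 at neither age, and the difference between the 2 genes was not tested. Itga7 (chr10:128933818-128958282, plus strand), the myofibre's own α chain, was 20.1 ± 5.18 TPM in the 5-week Col6a2-/- libraries and 15.1 ± 2.72 in WT (SD, n = 8 each). In 5-week females it read 13.2, 13.0, 11.0 and 15.1 TPM in WT and 18.7, 26.3, 15.3 and 13.4 in Col6a2-/-, and in males 18.4, 19.0, 15.4 and 16.1 in WT and 22.5, 20.5, 27.8 and 16.1 in Col6a2-/-. The groups overlapped through number 4 of each sex, and 7 of 8 Col6a2-/- libraries lay above the WT mean of their sex. The change was 0.37 ± 0.13 (adjusted p = 0.0385). At 25 weeks the 8 Col6a2-/- libraries spanned 10.2 to 16.2 TPM and the 8 WT libraries 9.20 to 17.0, and the change was -0.07 ± 0.13 (adjusted p = 0.809). The 5-week call of Itga7 was lost under the 3 other scalings (change 0.18 and adjusted p = 0.127 with median-of-ratios, 0.23 and 0.0819 without the 100 most abundant genes, 0.23 and 0.0708 with quantiles), with no filter on low TPM (0.0744), and without both 5-week Col6a2-/- females 2 and 4 (0.0641). It was also lost without any 1 of 9 libraries: Col6a2-/- female 2 (adjusted p = 0.116), male 3 (0.0988), male 1 (0.0730) and female 1 (0.0640), and WT female 3 (0.0790), male 3 (0.0714), male 4 (0.0683), female 1 (0.0565) and female 2 (0.0541), all of 5 weeks.

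Itga6 (chr2:71745616-71858416, plus strand), the laminin-binding chain known from endothelium and from muscle precursors, did not pass the test at either age. Its change was 0.10 ± 0.13 at 5 weeks (adjusted p = 0.613) and 0.10 ± 0.13 at 25 weeks (adjusted p = 0.729), and the sign at 5 weeks was negative under the 3 other scalings, down to -0.08, and without both 5-week Col6a2-/- females 2 and 4 (-0.02). The 25-week sign turned to -0.01 with median-of-ratios size factors. By sex at 5 weeks the female libraries spanned 6.35 to 12.9 TPM in WT and 9.40 to 17.7 in Col6a2-/-, while the males spanned 12.3 to 16.7 in WT and 10.0 to 14.1 in Col6a2-/-. In males 0 of 4 Col6a2-/- libraries lay above the WT mean, against 3 of 4 in females. The change was 0.44 ± 0.19 in 5-week females and -0.25 ± 0.19 in 5-week males. At 25 weeks the order was reversed, with -0.05 ± 0.19 in females and 0.25 ± 0.19 in males. The genotype change of males minus that of females was -0.20 ± 0.19 (adjusted p = 1) when averaged over both ages, whose differences had opposite signs. A test of the sex difference at 5 weeks alone was not run.

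Among the collagen-binding chains, Itga11 (chr9:62677826-62783982, plus strand), known from fibroblasts, was called at both ages. In 5-week females it read 1.57, 2.0, 1.70 and 1.82 TPM in WT and 2.27, 4.72, 3.80 and 1.01 in Col6a2-/-. The males of that age read 1.75, 1.26, 2.0 and 1.79 TPM in WT and 3.65, 2.73, 2.90 and 2.51 in Col6a2-/-. The male groups did not overlap, whereas in females Col6a2-/- number 4 was below every WT library. At 25 weeks females read 2.66, 1.72, 2.45 and 1.74 TPM in WT and 5.13, 1.80, 2.24 and 3.43 in Col6a2-/-, and males read 1.12, 1.13, 0.867 and 0.999 in WT and 2.29, 2.36, 1.92 and 2.52 in Col6a2-/-. Again the males did not overlap and the females did. The change was 0.48 ± 0.15 at 5 weeks (adjusted p = 0.0235) and 0.52 ± 0.15 at 25 weeks (adjusted p = 0.0477), and 7 of 8 Col6a2-/- libraries were above the WT mean of their sex at each age.

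Both Itga11 calls lie close to the threshold. The 5-week call was lost with median-of-ratios size factors (change 0.33, adjusted p = 0.0762), without the 100 most abundant genes (0.37, 0.0557), with quantiles (0.28, 0.114) and with no filter on low TPM (0.0523). It was also lost without 5-week Col6a2-/- female 2 (0.0755), female 3 (0.0539) or male 1 (0.0583), or without 5-week WT male 2 (0.0518). The 25-week call was lost with quantiles (0.0595), with no filter (0.121), on the coverage scale (0.0521), with the replicate number as a block (0.050, just over the threshold), and without any 1 of 24 of the 32 libraries, with adjusted p from 0.0504 to 0.132, the largest without 25-week Col6a2-/- female 1. The 8 libraries that could be left out singly with the call kept were 25-week WT female 1, 5-week Col6a2-/- females 2, 3 and 4 and males 1 and 4, and 25-week Col6a2-/- females 2 and 3, with adjusted p from 0.00872 to 0.0477. Itga1 (chr13:114953096-115101964, minus strand), the other collagen-binding chain, which overlaps Pelo on the same strand (2.14 TPM), changed by 0.22 ± 0.09 at 5 weeks (adjusted p = 0.0741) and by 0.14 ± 0.09 at 25 weeks (adjusted p = 0.407), not past the threshold; without 5-week Col6a2-/- female 4 or male 4 its 5-week adjusted p was 0.0180 or 0.0149. In 25-week males its WT libraries spanned 3.91 to 4.99 TPM and its Col6a2-/- libraries 5.36 to 6.40, without overlap.

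Itga5 (chr15:103344286-103366763, minus strand), the α chain of the classic fibronectin receptor, was called higher at both ages. In 5-week females it read 1.90, 1.62, 2.26 and 2.16 TPM in WT and 4.23, 4.99, 4.30 and 2.28 in Col6a2-/-. In 5-week males it read 3.02, 2.98, 3.82 and 4.15 TPM in WT and 5.95, 3.35, 4.99 and 3.23 in Col6a2-/-. The female groups did not overlap, though number 4 of the Col6a2-/- group lay just above the highest WT library, and in males 2 of 4 lay above the WT mean. At 25 weeks the females read 1.86, 1.24, 1.95 and 2.46 TPM in WT and 2.54, 2.11, 2.97 and 2.73 in Col6a2-/-. The 25-week males read 0.846, 0.960, 1.05 and 1.51 TPM in WT and 2.99, 1.77, 2.56 and 2.63 in Col6a2-/-. All 8 of the older Col6a2-/- libraries lay above the WT mean of their sex, and the males did not overlap. The change was 0.47 ± 0.12 at 5 weeks (adjusted p = 0.00586) and 0.53 ± 0.12 at 25 weeks (adjusted p = 0.0102). Leaving out each of the 32 libraries in turn kept the adjusted p at 0.0207 or lower at 5 weeks and at 0.0340 or lower at 25 weeks. The other settings that kept Itga5 in the test left it at 0.0406 or lower at both ages, with a 5-week change of 0.28 under quantile normalization and of 0.31 with median-of-ratios size factors.

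The promoter sequences of Itga5 and Itga11, the pair called at both ages, are shown because their transcripts were higher together, although no factor or chromatin was measured here. The 250 bases before the RefSeq start site are given on the gene's strand in build GRCm38.p6, in lower case, with matches to a searched motif in capitals. The motifs, searched on both strands, were the GC box GGGCGG, the CCAAT box, the TATA box TATAAA, the AP-1 site TGANTCA, the SMAD box CAGAC, the TEAD site GGAATG and the CArG box. In the windows shown no match lies within another. The Itga5 window lies at chr15:103366792-103367041 on the minus strand, the Itga11 window at chr9:62677605-62677854 on the plus strand.
Itga5: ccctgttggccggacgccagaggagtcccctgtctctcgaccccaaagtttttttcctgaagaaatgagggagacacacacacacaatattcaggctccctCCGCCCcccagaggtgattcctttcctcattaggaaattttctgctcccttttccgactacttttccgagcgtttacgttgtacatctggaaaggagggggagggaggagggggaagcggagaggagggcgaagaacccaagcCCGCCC
Itga11: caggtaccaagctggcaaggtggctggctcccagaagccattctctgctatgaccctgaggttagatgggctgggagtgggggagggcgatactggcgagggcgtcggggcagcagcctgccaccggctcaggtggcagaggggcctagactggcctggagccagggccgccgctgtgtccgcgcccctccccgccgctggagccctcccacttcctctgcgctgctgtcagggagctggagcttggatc
The Itga5 window holds 2 GC boxes, read here as CCGCCC from the opposite strand, and the Itga11 window holds none of the 7 motifs. A GC box occurs in 32.7% of 32851 RefSeq windows of the same length, a SMAD box in 42.2% and an AP-1 site in 6.75%. The GC content was 55.6% for Itga5 and 68.4% for Itga11, beside a median of 52.4% over all windows.

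Itga9 (chr9:118606690-118901003, plus strand), the chain that binds tenascin-C and VCAM1, was higher in Col6a2-/- at 5 weeks in 8 of 8 libraries against the WT mean of their sex. Females read 2.08, 1.95, 1.67 and 1.82 TPM in WT and 3.09, 4.94, 2.69 and 2.28 in Col6a2-/-, and males read 3.41, 2.29, 2.97 and 1.90 in WT and 4.19, 3.45, 4.24 and 3.29 in Col6a2-/-. The female groups did not overlap, and the males overlapped through WT male 1. The change was 0.47 ± 0.10 (adjusted p = 0.00182), and it stayed called without any 1 library (adjusted p of 0.0065 at most) and under every other setting that tested it, with 0.27 under quantile normalization, 0.32 with median-of-ratios size factors and 0.13 on the coverage scale, where the level of Itga9 was 0.192 on average. At 25 weeks females spanned 1.46 to 1.78 TPM in WT and 1.61 to 2.22 in Col6a2-/-, and males 0.703 to 1.55 in WT and 1.38 to 2.28 in Col6a2-/-. That change was 0.29 ± 0.10 (adjusted p = 0.109), and it passed at 0.0398 without 5-week Col6a2-/- female 2 and at 0.0335 without both females 2 and 4 of that group. Itga9 overlaps a processed pseudogene, Gm10157, on the opposite strand at 1.5 TPM; whether strand was used in counting is not given in the sources used here.

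Itgav (chr2:83724397-83806916, plus strand) encodes αv, shared by several β chains. In 5-week females it read 4.79, 5.85, 4.53 and 3.45 TPM in WT and 6.18, 15.7, 4.26 and 5.27 in Col6a2-/-, and in males 8.64, 5.35, 5.52 and 4.67 in WT and 10.2, 7.69, 13.5 and 4.91 in Col6a2-/-. The groups overlapped in both sexes, and female 2 stood far above the rest of its group. The change was 0.49 ± 0.18 (adjusted p = 0.0457). On the coverage scale it was 0.37 (adjusted p = 0.241), under the 3 other scalings it was 0.32 to 0.36 (adjusted p = 0.0841 to 0.117), with no filter the adjusted p was 0.0965, and without both females 2 and 4 the change was 0.31 (adjusted p = 0.165). Without female 2 alone it was 0.31 (adjusted p = 0.141), and leaving out any 1 of 17 libraries in all ended the call. The other 16 were, at 5 weeks, WT females 1, 3 and 4, WT males 2, 3 and 4, Col6a2-/- female 1 and Col6a2-/- males 1 and 3 (adjusted p from 0.0547 to 0.123), and, at 25 weeks, WT males 1, 2 and 3, Col6a2-/- females 2 and 4 and Col6a2-/- males 3 and 4 (0.050 to 0.0512).

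At 25 weeks the Itgav values differed by sex in their spread between genotypes. Males read 3.27, 4.26, 3.45 and 4.09 TPM in WT and 7.19, 7.74, 7.25 and 7.2 in Col6a2-/-, without overlap, and females read 6.16, 3.98, 6.50 and 4.80 in WT and 6.81, 5.05, 4.21 and 5.16 in Col6a2-/-, which overlapped throughout. The change over both sexes was 0.40 ± 0.18 (adjusted p = 0.215). In males alone it was 0.81 ± 0.26 (adjusted p = 0.0721) and in females -0.01 ± 0.26 (adjusted p = 1). The male change passed at 0.0158 without 5-week Col6a2-/- female 2, at 0.0128 without both females 2 and 4 of that group, at 0.0489 with median-of-ratios size factors, at 0.0451 without the 100 most abundant genes and at 0.0466 with a pseudocount of 0.1 TPM. The genotype change of males minus that of females, averaged over both ages, was 0.39 ± 0.26 (adjusted p = 1), and a test of that difference at 25 weeks alone was not run.

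Itgb5 (chr16:33829665-33949153, plus strand), the β chain of the vitronectin receptor αvβ5, changed by 0.21 ± 0.09 at 5 weeks (adjusted p = 0.0882) and by -0.05 ± 0.09 at 25 weeks (adjusted p = 0.817), not past the threshold; without 5-week Col6a2-/- female 4 the 5-week change passed (adjusted p = 0.0391). In 5-week libraries 8 of 8 Col6a2-/- values lay above the WT mean of their sex, though the groups overlapped in both sexes. Females spanned 9.10 to 11.3 TPM in WT and 10.8 to 16.5 in Col6a2-/-, and males 8.96 to 11.7 and 10.7 to 12.3. Itgb8 (chr12:119158022-119238802, minus strand), the β chain of the TGFβ-binding αvβ8, stayed between 0.177 and 1.14 TPM in all 32 libraries. With no filter on low TPM, where 32958 genes were tested, its change was 0.12 ± 0.08 at 5 weeks (adjusted p = 0.423) and 0.04 ± 0.08 at 25 weeks (adjusted p = 0.961). At this level the pseudocount of 1 TPM compresses any change.

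Within each sex the counts were smaller. In 5-week females 2 of 9 members were called, Itga5 (0.70 ± 0.17, adjusted p = 0.00873) and Itga9 (0.53 ± 0.15, adjusted p = 0.0204), beside 12.3% of all genes called higher, and those 2 members were also the ones without overlap, beside 8.53% of all genes. Without Col6a2-/- female 2 both calls were lost (adjusted p = 0.0618 and 0.148), beside 3.11% of all genes called higher, and without female 4 the count rose to 7, beside 29.0% of all genes. The Itga9 call was also lost without WT female 3 (0.0561) or Col6a2-/- female 1 (0.0518), without both Col6a2-/- females 2 and 4, and with quantiles (adjusted p up to 0.0623). In 5-week males limma called 0 of 9 members, and 4.55% of all genes were called higher; 2 members had an unadjusted p under 0.05, beside 19.6% of all genes. Itga11 was without overlap, beside 9.32% of all genes. Without 5-week Col6a2-/- female 2 the male count was 1, beside 7.05% of all genes.

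In 25-week males 1 of 9 was called, Itga5 (0.73 ± 0.17, adjusted p = 0.020), beside 2.91% of all genes. The genes without overlap there were Itga1, Itga5, Itga11 and Itgav, 4 of 9, beside 13.9% of all genes. The Itga5 call was lost without Col6a2-/- male 1 (0.108) or 3 (0.0518), without WT male 1 (0.0565), 2 (0.0653) or 3 (0.0649), and with no filter on low TPM (0.0575), while 4 members were called without 5-week Col6a2-/- female 2 (beside 6.23% of all genes), 3 without 5-week Col6a2-/- female 4 (5.95%) and 2 without 25-week WT male 4 (3.21%). In 25-week females limma called 0 of 9, and 0% of all genes were called higher; 0 members had an unadjusted p under 0.05, beside 4.85% of all genes. There 0 members were without overlap, beside 3.8% of all genes. The Itga5 change there was 0.33 ± 0.17 (adjusted p = 1) and that of Itga11 0.35 ± 0.22 (adjusted p = 1).

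No member passed the test that the genotype change differs between the ages: 0 of 9 were called by limma, beside 0.492% of all genes, and 1 had an unadjusted p under 0.05, beside 7.01% of all genes. That gene was Itga7, whose genotype change at 25 weeks was lower than at 5 weeks by 0.44 ± 0.18 (difference -0.44, adjusted p = 0.558). The test that the genotype change differs between the sexes, averaged over both ages, called 0 of 9, beside 0.0156% of all genes. It gave 0 members at an unadjusted p under 0.05, beside 1.61% of all genes. A sex difference was called in 0 of 9 members, beside 3.05% of all genes, with 1 (Itga1, 0.13 ± 0.07) at an unadjusted p under 0.05, beside 13.2%.

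Between 5 and 25 weeks 1 member, Itgb5, rose in both genotypes, and 4 genes for partners of β1, Itga1, Itga5, Itga6 and Itga9, fell in both. In WT, 1 member was called higher (Itgb5) and 4 lower (Itga1, Itga5, Itga6 and Itga9), beside 4.47% of all genes higher and 15.3% lower. In Col6a2-/-, 1 was called higher (Itgb5) and 6 lower (Itga1, Itga5, Itga6, Itga7, Itga9 and Itgb1), beside 5.41% higher and 28.8% lower. These 5 and 7 calls held without any 1 library in turn. The median change of all genes was -0.08 in WT and -0.14 in Col6a2-/-. The excess of lower calls among all genes depended on scaling: in WT 573 genes were called higher and 1963 lower, against 1710 and 1953 with median-of-ratios size factors, 1405 and 2068 without the 100 most abundant genes and 1777 and 1680 with quantiles. In Col6a2-/- these counts were 694 and 3695, against 2104 and 2319, 1750 and 2594, and 2419 and 2128. Among the members those 3 scalings gave 1 higher and 4 lower in WT, or 5 lower with quantiles, and 1 higher and 6 lower in Col6a2-/-.

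**Figure D3:**
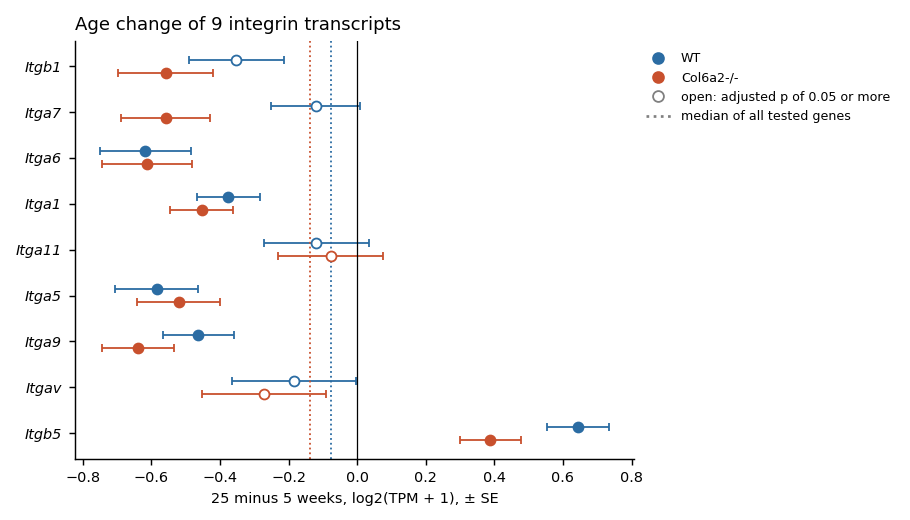
Age change (horizontal axis, 25 minus 5 weeks on the log2(TPM + 1) scale, ± SE) of the 9 tested integrin genes in WT (blue) and Col6a2-/- (orange), 8 libraries per genotype and age. Filled points have an adjusted p under 0.05 and dotted lines mark the median of all genes; Itgb5 lies to the right at 0.64 and 0.39, and the other filled points lie to the left between -0.64 and -0.38.

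In WT, Itgb5 read 10.5, 11.3, 9.10 and 9.83 TPM in 5-week females and 11.7, 10.5, 8.96 and 10.9 in 5-week males. At 25 weeks the WT females read 19.8, 16.7, 18.8 and 14.3 TPM and the males 15.2, 18.2, 15.6 and 15.6. All 8 older libraries lay above all 8 younger ones, a pattern held by 0.694% of all genes in that direction. The change was 0.64 ± 0.09 (adjusted p = 6.9e-06), and 0.41 or more under every other setting. In Col6a2-/- the 5-week females read 11.3, 16.5, 12.7 and 10.8 TPM and the males 12.3, 11.6, 11.5 and 10.7. At 25 weeks the Col6a2-/- females read 15.8, 12.6, 16.3 and 18.9 TPM and the males 16.8, 13.5, 18.1 and 18.0. The ages overlapped there, and the change was 0.39 ± 0.09 (adjusted p = 0.00149). The 5-week female 2 (16.5 TPM) lay above the 25-week females at 15.8, 12.6 and 16.3 TPM and the male at 13.5 TPM. The 5-week female 3 (12.7 TPM) lay above the 25-week female at 12.6 TPM. The difference between the genotypes in this age change was -0.25 ± 0.13 (adjusted p = 0.729).

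The Itgb5 promoter is shown as that of the 1 member called higher with age. The window lies at chr16:33829415-33829664 on the plus strand, 250 bases before the start site in RefSeq, build GRCm38.p6, with motif matches in capitals as for Itga5.
Itgb5: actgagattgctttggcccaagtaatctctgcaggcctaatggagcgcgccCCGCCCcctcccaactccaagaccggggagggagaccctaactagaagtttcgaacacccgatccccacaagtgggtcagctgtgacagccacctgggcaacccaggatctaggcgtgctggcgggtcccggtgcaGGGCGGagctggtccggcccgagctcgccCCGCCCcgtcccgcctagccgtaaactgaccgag
It holds 3 GC boxes, none of the other motifs, and a GC content of 65.2%. Of the 10 members 8 matched a RefSeq promoter entry. For Itga9 the matched start lay 105002 bases from the deposited start of the gene, and for Itgb8 526 bases, so those windows are not at the deposited starts.

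No member passed the test that its age change differs between the genotypes, which is the same test as that of the genotype change between the ages. Itga6 fell by 0.62 ± 0.13 in WT (adjusted p = 0.00125) and by 0.61 ± 0.13 in Col6a2-/- (adjusted p = 0.000722), from 12.1 ± 3.61 to 7.26 ± 1.06 TPM in WT (SD, n = 8). Itga5 fell by 0.58 ± 0.12 in WT (adjusted p = 0.000907) and by 0.52 ± 0.12 in Col6a2-/- (adjusted p = 0.0015). For Itga9 the changes were -0.46 ± 0.10 in WT (adjusted p = 0.0021) and -0.64 ± 0.10 in Col6a2-/- (adjusted p = 2.85e-05); in Col6a2-/- no 25-week library reached a 5-week one, a pattern held by 1.88% of all genes in that direction. Itga1 fell by 0.38 ± 0.09 and by 0.45 ± 0.09 (adjusted p = 0.00445 and 0.000409). Itga7 changed by -0.12 ± 0.13 in WT (adjusted p = 0.563) and fell by 0.56 ± 0.13 in Col6a2-/- (adjusted p = 0.0015), and Itgb1 changed by -0.35 ± 0.14 in WT (adjusted p = 0.0747) and fell by 0.56 ± 0.14 in Col6a2-/- (adjusted p = 0.00276). The WT value of Itgb1 passed at 0.0293 without 5-week Col6a2-/- female 2, at 0.0373 without female 4, at 0.0192 with quantiles and at 0.0142 on the coverage scale. Itga11 and Itgav were not called with age in either genotype (changes of -0.12 and -0.19 in WT, -0.08 and -0.27 in Col6a2-/-). On the coverage scale, where Itga6, Itga9 and Itgb5 have lower levels and adding 1 compresses their changes more, each of these 3 age calls kept its direction in both genotypes. There Itga6 changed by -0.34 in WT and -0.32 in Col6a2-/- (adjusted p = 0.000467 and 0.000367), Itga9 by -0.09 and -0.16 (0.0217 and 6.07e-05) and Itgb5 by 0.41 and 0.22 (5.2e-05 and 0.0104). With no filter on low TPM, Itgb8 changed by -0.20 ± 0.08 in WT (adjusted p = 0.172) and fell by 0.28 ± 0.08 in Col6a2-/- (adjusted p = 0.0228).

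Ratios of TPM within a library do not change when a library is divided by a single factor, though quantile normalization and the coverage scale do change them, and they are given here as a description. Itgb1 stood at 1.49 to 1.63 times the summed TPM of Itga1, Itga5, Itga6, Itga7, Itga9 and Itga11 in the means of all 8 groups (Itgav, which also pairs with other β chains, was left out of the sum), with SDs of 0.0692 to 0.287. Between groups the sum of these 6 α genes ran from 28.7 ± 1.79 TPM in 25-week WT males to 54.6 ± 9.96 in 5-week Col6a2-/- males (n = 4 each). The share of Itgb5 in the summed TPM of the 3 β genes was 16.3% ± 2.68 in 5-week WT females and 12.8% ± 2.0 in 5-week WT males, and 25.8% ± 1.48 and 26.0% ± 4.80 at 25 weeks. In Col6a2-/- the shares were 15.0% ± 3.08 and 12.5% ± 2.39 at 5 weeks, and 23.7% ± 3.78 and 23.9% ± 2.76 at 25 weeks.

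The share of Itga7 among the 7 α genes was highest in 25-week WT males, at 42.8% ± 5.13, with each library at 38.4% or more. In the other 7 groups the mean share lay between 31.9% and 35.9%, and in 25-week Col6a2-/- males it was 32.02% ± 1.96. Itgb5 per Itgav moved in the same group, at 4.31 ± 0.361 in 25-week WT males and 2.27 ± 0.358 in 25-week Col6a2-/- males, beside 3.32 ± 0.602 and 3.09 ± 0.791 in females of that age. These differences were not tested, and shares of summed TPM carry the low ratio of coverage to FPKM of Itgb5, Itga6 and Itga9 given with their levels.

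**Figure D4:**
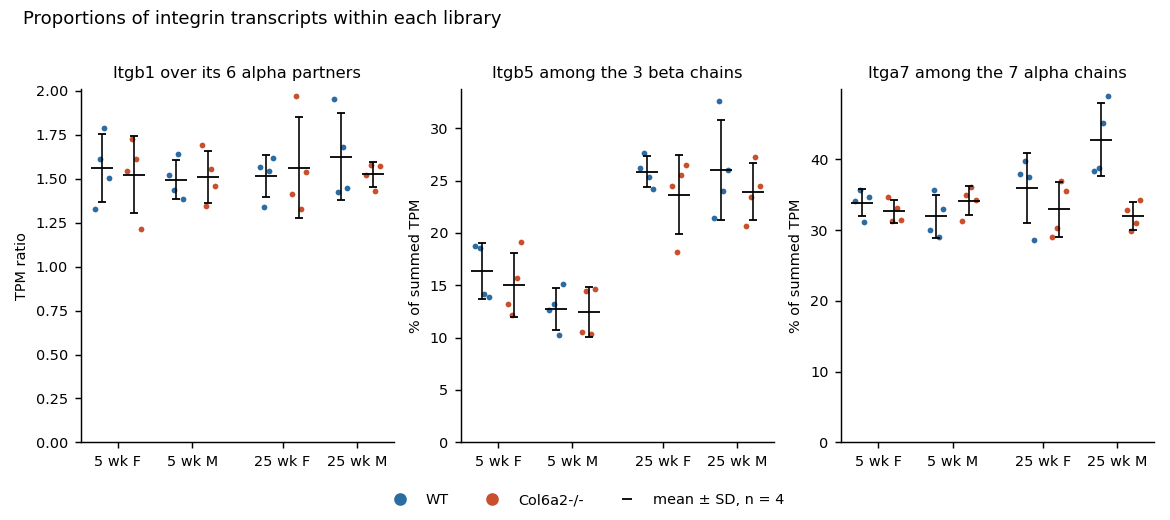
Proportions within each library in the 8 groups, WT in blue and Col6a2-/- in orange, points for libraries and bars for the mean ± SD of 4. The left axis is the ratio of Itgb1 to the summed TPM of 6 of its α partners, without Itgav (group means 1.49 to 1.63), the middle axis the percent of the summed TPM of the 3 β genes from Itgb5 (higher at 25 weeks), and the right axis the percent of the summed TPM of the 7 α genes from Itga7 (highest in 25-week WT males, 42.8%).

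Among the other integrin genes, those called with genotype encode leukocyte and platelet chains. Of the 16 listed, 11 were tested, and 5 were called higher at 5 weeks, beside 23.2% of all genes, and 0 lower; the median change of the 11 was 0.12, beside 0.15 for all genes. They were Itgb2 (1.23 ± 0.14, adjusted p = 4.31e-07), the common β chain of leukocyte integrins, its partners Itgax (1.05 ± 0.10, 1.68e-08) and Itgam (1.02 ± 0.21, 0.00083), the platelet chain Itga2b (0.47 ± 0.12, 0.00507) and Itgb7 (0.29 ± 0.09, 0.0263), a lymphocyte chain. Itgax averaged 0.148 ± 0.0675 TPM in 5-week WT and 0.127 ± 0.0861 in 25-week WT, against 1.43 ± 0.508 in 5-week Col6a2-/- (SD). Itga2b averaged 0.397 ± 0.189, 0.241 ± 0.152 and 0.954 ± 0.433 TPM in the same groups. Itgax and Itga2b passed the filter of 1 TPM only through Col6a2-/- libraries. The filter therefore favours their higher calls and the counts that include them. The Itgb7 call was lost under the 3 other scalings (change down to 0.12, adjusted p from 0.0803 to 0.286). It was also lost without 5-week Col6a2-/- female 1 (0.0626) or 2 (0.0633), Col6a2-/- male 1 (0.0529) or 2 (0.050), or WT male 4 (0.0551). At 25 weeks Itgax (0.67 ± 0.10, adjusted p = 0.00031) and Itgb2 (0.72 ± 0.14, adjusted p = 0.00361) were called higher, 2 of 11 beside 4.47% of all genes, and 0 lower. Itgb6, another β partner of αv, had the highest mean of the list, 12.7 TPM, followed by Itga4 at 2.91 and Itgb2 at 2.04 TPM. Itgb6 changed by 0.01 ± 0.10 at 5 weeks (adjusted p = 0.956) and Itga4 by -0.07 ± 0.13 (adjusted p = 0.725), a value that was -0.27 (adjusted p = 0.0218) with quantiles.

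Genes for proteins on the inner side of integrins rose in part. Of 29 genes of the adhesion complex 28 were tested, and 12 were called higher and 0 lower at 5 weeks, beside 23.2% and 2.14% of all genes, with a median change of 0.23 beside 0.15. At 25 weeks 4 were called higher, beside 4.47% of all genes, and 0 lower. At 5 weeks the 4 with the smallest adjusted p were Fermt3 (0.75 ± 0.11, adjusted p = 9.64e-06), the kindlin of blood cells, Actn1 (0.48 ± 0.11, 0.00185), an actin crosslinker, Lims1 (0.54 ± 0.13, 0.0032), or PINCH1, and Parvb (0.35 ± 0.08, 0.00354), or β-parvin. The 4 at 25 weeks were Lims1 (0.71 ± 0.13, adjusted p = 0.00168), Parvb (0.37 ± 0.08, 0.00903), the actin crosslinker Flna (0.49 ± 0.11, 0.0122) and Fermt3 (0.42 ± 0.11, 0.0234). Fermt3 averaged 0.517 ± 0.142 TPM in 5-week WT and 0.433 ± 0.221 in 25-week WT, against 1.59 ± 0.503 in 5-week Col6a2-/- (SD). It passed the filter of 1 TPM only through Col6a2-/- libraries, so the filter favours its higher call at both ages. The counts of 12 and 4 that include Fermt3 are favoured in the same way. The 5-week Parvb call was lost with median-of-ratios size factors (0.20, adjusted p = 0.0863) and quantiles (0.15, 0.184), and its 25-week call with quantiles (0.0594). The 25-week Fermt3 call was lost with no filter on low TPM (0.0614) and without 25-week WT female 4 (0.0659) or male 3 (0.0606), Col6a2-/- female 1 (0.0661) or 4 (0.0586), or Col6a2-/- male 1 (0.0708). With age 8 of 28 were called lower in WT, beside 15.3% of all genes, and 14 in Col6a2-/-, beside 28.8%, and 0 were called higher in either, beside 4.47% and 5.41%.

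Of 30 genes for integrin ligands, all tested, 19 were called higher, beside 23.2% of all genes, and 0 lower at 5 weeks, with a median change of 0.44 beside 0.15 for all genes. At 25 weeks 6 were called higher, beside 4.47% of all genes, 0 lower and 24 not called, with a median change of 0.31 beside 0.08. Like the members, this list was chosen with earlier results of these data known, so the counts are descriptions only. Postn, which encodes periostin, a ligand of αv integrins, rose by 1.97 ± 0.30 at 5 weeks (adjusted p = 2.1e-05) and by 1.5 ± 0.30 at 25 weeks (adjusted p = 0.00363). Col3a1, a fibrillar collagen, rose by 1.04 ± 0.22 and 1.25 ± 0.22 (adjusted p = 0.00106 and 0.00125). Vcam1, a ligand of α4β1 and α9β1, rose by 0.47 ± 0.10 and 0.36 ± 0.10 (adjusted p = 0.000782 and 0.0259). Tgfb3 rose by 0.44 ± 0.10 at 5 weeks (adjusted p = 0.00267), and its change at 25 weeks was 0.00 ± 0.10 (adjusted p = 0.993). Fn1, the fibronectin bound by α5β1, rose by 1.35 ± 0.28 at 25 weeks (adjusted p = 0.00626) and by 0.82 ± 0.28 at 5 weeks (adjusted p = 0.0341). The 5-week Fn1 call was lost with no filter (0.0780), median-of-ratios size factors (0.0876), the rescaling without the 100 most abundant genes (0.0713) and quantiles (0.0565). It was also lost without 5-week Col6a2-/- female 2 (adjusted p = 0.10) or 3 (0.0562), Col6a2-/- male 1 (0.0895) or 3 (0.0641), or WT female 1 (0.0793) or male 2 (0.0748). The 25-week Vcam1 call was lost with no filter (0.0608), on the coverage scale (0.0708), and without 25-week WT male 2 (0.0581) or 3 (0.0682), Col6a2-/- female 1 (0.0581) or 4 (0.0545), or Col6a2-/- male 1 (0.0817). With age 23 of 30 were called lower in WT, beside 15.3% of all genes, and 24 in Col6a2-/-, beside 28.8%, with median changes of -0.93 and -0.94.

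Markers of other cells moved with the genotype beside the integrin genes. The counts of markers called stand beside 23.2% of all genes called higher and 2.14% lower at 5 weeks, and 4.47% and 0.234% at 25 weeks. The summed TPM of 7 macrophage and leukocyte markers spanned 17.1 to 32.4 in 5-week WT and 20.9 to 81.3 in 5-week Col6a2-/- libraries, with the highest value in Col6a2-/- female 2, and 6 of the 6 tested were called higher; at 25 weeks it spanned 10.1 to 29.5 in WT and 22.2 to 39.7 in Col6a2-/-, with 5 of 6 higher. The 6 fibroblast and fibro-adipogenic markers spanned 584 to 1157 in 5-week WT, 577 to 1334 in 5-week Col6a2-/-, 395 to 764 in 25-week WT and 740 to 1141 in 25-week Col6a2-/-, with 3 and 4 of 6 called higher. The regenerating fibre markers spanned 108 to 151 in 5-week WT and 104 to 231 in 5-week Col6a2-/- (5 of 6 higher), and 91.0 to 127 and 96.8 to 129 at 25 weeks (1 of 6). Averaged over all libraries, Myh8 made up most of this sum, at 109 TPM beside 1.48 to 6.44 TPM for each other marker of that list. Endothelial markers spanned 60.7 to 113 and 68.9 to 123 at 5 weeks (3 of 7 higher) and 56.5 to 85.7 and 61.2 to 81.6 at 25 weeks (0 of 7). Myofibre markers spanned 21407 to 29460 in 5-week WT and 16440 to 28420 in 5-week Col6a2-/- (3 of 6 lower), and 17265 to 25161 and 15027 to 21509 at 25 weeks (0 of 6 called). Defining markers of each of these lists were above 0 in all libraries for Adgre1, Pdgfra, Myh3, Pecam1 and Acta1, while Mymk, Mymx and Cd3e were at 0 in 5, 4 and 23 libraries. The part of these cells in the integrin changes was not tested.

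The genes whose 8 group means followed those of a member most closely were found for the 3 members with the widest range of group means. For Itga5 they were Scpep1, Sec61a1 and Glipr2, with a root mean square difference of 0.07, 0.07 and 0.08 on the log2 scale after each profile was centred. For Itga9 they were Mgat2, Tcaf1 and Akt1, with 0.03, 0.04 and 0.04. For Itgav they were Nnmt, Mdfic and BC017643, with 0.07, 0.07 and 0.08. These are likenesses over 8 group means that share their libraries.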

How the data were processed

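Per the submitters' processing notes the tools were FastQC, MultiQC, Trimmomatic, HISAT2, SAMtools and StringTie, with the builds GRCm38 and mm10 named; versions, annotation and strand setting are not given in the sources used here. Each mouse has 1 deposited table, in which the authors give TPM, FPKM and coverage per gene. TPM values, deposited by the authors, are scaled to transcript length and to the library total. FPKM values deposited by the authors served, with the coverage signal deposited beside them, to derive relative depth and to put coverage on the TPM scale. The 11 to 18 gene IDs repeated in a table were summed.

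The 12817 genes that reached 1 TPM in 4 libraries or more were tested with limma 3.58.1 in R 4.3.3 (trended moderated test, 8 group means, 11 contrasts) on log2(TPM + 1), with Benjamini-Hochberg adjustment over all of them. TPM are not counts, so no count model was used, and depth enters only as a relative value. The code was tested on simulated data. Labels say the 4 mice of a group are separate animals. The members and the lists were chosen with earlier results of these data known. Named with values were all 10 members, the other integrin genes called at either age and the 3 most abundant of them, up to 4 genes per direction of the adhesion and ligand lists with the smallest adjusted p among those called at each age, and the 3 nearest profiles of the 3 members with the widest range. For a symbol with 2 IDs, Itgam, the ID at the RefSeq position was taken. Marker lists also covered satellite cells (2 of 3 tested called higher at 5 weeks and 0 at 25), tenocytes (0 of 6 at both ages), pericytes and smooth muscle (2 of 7 and 0), Schwann cells (0 of 4), adipocytes (0 of 4) and erythrocytes (0 of 3). Alternatives were the pseudocount, the filter, 3 scalings, a replicate block, leaving out each library, and, added after seeing the data, coverage in place of TPM and leaving out 2 libraries together. No 2 libraries held identical values (highest Pearson r 0.993).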

Additional observations from a re-analysis of the deposited data

Results flagged for a closer look

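Of 80 pairs of a group and a member, 5 had a library whose gap to its nearest neighbour exceeded the 95% critical value of Dixon's test for 4 samples; chance alone gives about 1 in 20. Itgav in 5-week Col6a2-/- female 2 stood at 15.7 TPM, with the others of its group at 4.26 to 6.18. Itgav in 25-week Col6a2-/- male 2 stood at 7.74 TPM against 7.19 to 7.25, a narrow group. Itgb5 in 25-week WT male 2 stood at 18.2 TPM against 15.2 to 15.6. Itgb8 stood at 1.14 TPM in 5-week WT male 1 against 0.520 to 0.567, and at 0.562 TPM in 25-week Col6a2-/- female 4 against 0.302 to 0.336.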

How the results depend on the processing

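Each called change of a member kept its sign under every setting in which that member was tested; the filter of 5 TPM left out Itga5, Itga9, Itga11 and Itgb8. Of 6195 values of members and named genes under other settings, 6025 kept their side of the threshold, 121 lost and 49 gained a call, and 0 reversed. The counts of all genes called were 3253 for genotype at 5 weeks, 603 at 25 weeks, 63 for genotype by age, 1648 and 645 in 5-week females and males, 1 and 388 in 25-week females and males, 2 for genotype by sex, 2536 for age in WT, 4389 for age in Col6a2-/- and 391 for sex; those for members are in the report. They moved by over 1.5 times as follows; unless a setting's own construction shows it, the cause was not tested.

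With a filter of 5 TPM, which tests fewer genes and 6 members, the counts of genes were 1553, 344 and 32 for genotype at 5 weeks, at 25 weeks and by age, 722 and 295 in 5-week females and males, 251 in 25-week males, 1441 and 2263 for age in WT and Col6a2-/-, and 258 for sex, and the members 2 at 5 weeks, 0 at 25 weeks, 0 in 5-week females, 0 in 25-week males and 3 for age in WT. With no filter the genes were 343 at 25 weeks, 115 by age, 4 in 25-week females, 133 in 25-week males and 5 by sex. The members were then 2 at 5 weeks (beside 3695 genes), 1 at 25 weeks and 0 in 25-week males. With median-of-ratios size factors the genes were 1282 at 25 weeks, 132 by age, 1082 in 5-week males, 12 in 25-week females, 809 in 25-week males and 822 for sex, and the members 2 at 5 weeks (beside 3102 genes) and 3 in 25-week males. Without the 100 most abundant genes they were 1084, 115, 980, 7, 709 and 782, in that order, and the members again 2 (beside 2955 genes) and 3. With quantile normalization the genes were 163 by age, 1151 in 5-week males, 4 in 25-week females and 828 for sex. The members were then 2 at 5 weeks (beside 3085 genes), 1 at 25 weeks (848) and 1 in 5-week females (1602). A pseudocount of 0.1 gave 2 genes in 25-week females and 736 in 25-week males, with 4 members. Coverage gave 1 member at 25 weeks, beside 518 genes.

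Without 5-week Col6a2-/- females 2 and 4 together the genes were 1233 at 25 weeks, 135 by age, 1184 in 5-week males, 6 in 25-week females, 1130 in 25-week males and 1 by sex. The members were then 3 at 5 weeks (beside 3199 genes), 1 in 5-week females (1458), 2 in 5-week males and 4 in 25-week males. Leaving out 1 library at a time gave 270 to 983 genes at 25 weeks, 49 to 229 by age, 455 to 3865 and 313 to 1003 in 5-week females and males, 1 to 5 and 55 to 816 in 25-week females and males and 327 to 693 for sex. The lowest of these came without 25-week Col6a2-/- male 1 (270 and 55), 5-week WT female 1 (49), 5-week Col6a2-/- female 2 (455) and male 1 (313), and the highest without 5-week Col6a2-/- female 2 (983, 816 and 693), female 4 (229 and 3865) and male 4 (1003). The members called then ran from 2 to 8 at 5 weeks, where the genes called ran from 2207 to 4749. They ran from 1 to 3 at 25 weeks, 0 to 7 in 5-week females, 0 to 1 in 5-week males and 0 to 4 in 25-week males. At 5 weeks the count was 2 without Col6a2-/- female 2 or male 1, beside 15.2% and 15.6% of all genes called higher. It was 8 without Col6a2-/- female 4, beside 34.6% of all genes. It was 3 without WT females 1 or 3, WT males 2, 3 or 4, Col6a2-/- female 1 or Col6a2-/- male 3, beside 17.0% to 19.4% of all genes.

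The groups share replicate numbers, and same-numbered libraries deviated together little on average (mean r = 0.031, beside -0.010 for other numbers). Of 112 pairs 35 were above 0.1, and 10 of 32 libraries correlated best with their own number. The main fit treats the numbers as names of samples, and these correlations cannot show that the numbers carry no shared batch. A fit with the replicate number as a block called 3293 genes at 5 weeks with 5 members, 658 at 25 weeks with 1 member (Itga5; Itga11 was at an adjusted p of 0.050, just over the threshold), and 2 in 25-week females.

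Itgb8 was under the filter of 1 TPM, and Itga5, Itga9 and Itga11 lie within a few TPM of it; depth is known only as a relative value, and its effect on these low transcripts was not tested. The replicates are 4 mice per group.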
